A study of Homo sapiens with 4 samples.

Results

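Keratins are the intermediate filament proteins of epithelial cells. Here 9 of them were followed by their gene symbols: keratins of luminal, ductal and basal epithelium, and also KRT10 and KRT80. The matrices were single-cell RNA-seq counts of 33538 genes from LNCaP prostate cancer cells. LNCaP is an established human prostate cancer line, and enzalutamide (ENZ) is a drug used against prostate cancer. The 4 libraries were LNCaP, parental cells given 0.1% DMSO as vehicle for 48 h; LNCaP-ENZ48, parental cells given 10 µM ENZ for 48 h; RES-A, a resistant subline raised in rising concentrations of ENZ; and RES-B, a resistant subline raised in the related compound RD-162. Both sublines were kept in 10 µM ENZ, whereas parental cells met it only in the 48 h treatment, and all cells grew in the same serum-supplemented medium and were sorted as living cells before droplet capture of RNA 3′ ends. Each condition was 1 library and each subline a single line, so no difference between conditions has a replicate check. A subline also differs from the parental cells in its time in culture, which cannot be told apart from resistance.

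Keratin filaments are built from pairs of an acidic type I keratin and a basic type II keratin. Simple and luminal epithelium, including that of the prostate, carries mainly the pair KRT8 (type II) and KRT18 (type I), joined in many ducts by KRT19 (type I) and KRT7 (type II). Basal cells of the prostate carry KRT5 (type II) with KRT14 or KRT15 (type I), while KRT10 (type I) is best known from differentiating epidermis and KRT80 is a type II keratin of epithelial cells. The 9 genes lie in both human keratin clusters. On GRCh38, KRT80 (chr12:52168996-52192014), KRT7 (chr12:52232520-52252186), KRT5 (chr12:52514575-52520530) and KRT8 (chr12:52897187-52949954) are in the type II cluster of chromosome 12, and KRT18 (chr12:52948871-52952906), the 1 type I gene of that cluster, overlaps the annotated bounds of KRT8 by 1084 bases on the opposite strand. KRT10 (chr17:40818117-40822614), KRT15 (chr17:41513745-41522529), KRT19 (chr17:41523617-41528308) and KRT14 (chr17:41582279-41586895) are in the type I cluster of chromosome 17. KRT10 overlaps TMEM99, a non-coding gene on the other strand, by 3514 bases.

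The RefSeq promoter table for GRCh38.p14 matched 3 of the 9 genes. KRT10 and KRT5 are shown because they are a type I and a type II keratin with opposite readouts in these cells. KRT10 was among the 3 most abundant keratins and KRT5 had no count. The 250 bases before each RefSeq start are given 5′ to 3′ on the minus strand, at chr17:40822615-40822864 for KRT10 and chr12:52520395-52520644 for KRT5. Capitals mark the letters TATAAA or ATAAAA, searched on both strands.
KRT10: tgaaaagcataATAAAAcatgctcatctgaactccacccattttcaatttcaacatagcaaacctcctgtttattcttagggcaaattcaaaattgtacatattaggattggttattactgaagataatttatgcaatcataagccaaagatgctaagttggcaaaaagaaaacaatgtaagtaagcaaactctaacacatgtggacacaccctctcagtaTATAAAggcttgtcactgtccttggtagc
KRT5: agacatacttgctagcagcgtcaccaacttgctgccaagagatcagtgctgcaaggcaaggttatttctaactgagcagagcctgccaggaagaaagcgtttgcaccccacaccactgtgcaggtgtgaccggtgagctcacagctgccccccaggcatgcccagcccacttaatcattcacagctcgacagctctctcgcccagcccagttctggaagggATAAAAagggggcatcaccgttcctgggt
In both windows the match nearest to the start began 29 bases before it, TATAAA for KRT10 and ATAAAA for KRT5. The KRT5 window lies partly within the annotated bounds of KRT5 given above. TATAAA was present in 10.7% of 35116 promoter windows and ATAAAA in 14.8%. The KRT10 window held 0 CpG dinucleotides and the KRT5 window held 6, against a median of 11 per window. The window listed for KRT8 belongs to a start 21393 bases from that of its main transcript and is not shown.

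The matrices held 17233 barcodes, of which 14727 cells passed the study's limits per library: 1782 for LNCaP, 4315 for LNCaP-ENZ48, 4569 for RES-A and 4061 for RES-B. Summed unique molecular identifiers (UMIs, each standing for 1 captured RNA molecule) came to 50208831 to 60838227 per library. The LNCaP cells were deeper, with a median of 27080 UMIs per cell against 12138 to 13676 elsewhere, and their lower limit was 16000 UMIs against 5000. Library pairs shared 2 to 9 cell barcodes. Levels are given as CPM, the UMIs of a gene for every 1000000 UMIs of the library, and all intervals are 95% intervals that cover counting error only. A UMI marks a captured 3′ end, so CPM is not scaled by transcript length. It is compared here mainly for 1 gene between libraries. Ranks, shares of keratin UMIs and ratios between keratins compare different genes within a library. Of the marker lists, TP63, the defining transcription factor of basal cells, had 0 UMIs in all 4 libraries. Of 9 immune and blood markers 4 to 7 were at 0 and their summed level was 0.359 to 1.24 CPM; of 10 fibroblast, smooth muscle and endothelial markers 2 or 3 were at 0, with a summed level of 4.15 to 8.07 CPM. The leukocyte gene PTPRC was found in no cell, and the red cell gene HBB in at most 3 cells of a library.

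The keratin RNA of these cells was almost wholly KRT18, KRT10 and KRT8, which together held 99.3% to 99.8% of the UMIs of all 55 keratin genes. KRT18 was the most abundant keratin in every library and ranked between 132nd and 234th of all genes. Its level was 445 CPM in LNCaP and 433 in LNCaP-ENZ48, against 639 for RES-A and 918 for RES-B. KRT18 was thus at about the same level in both parental libraries and higher in both sublines, with RES-B the highest. Its log2 ratio against LNCaP was -0.04 (-0.06 to -0.01) with short ENZ treatment, 0.52 (0.50 to 0.55) for RES-A and 1.05 (1.02 to 1.07) for RES-B, the last a 2.07-fold difference. RES-B exceeded RES-A by 0.52 (0.50 to 0.54) on the log2 scale. The small negative value in LNCaP-ENZ48 turned to 0.06 with TMM scaling or with DESeq2 size factors, and the ratio in RES-B was just under 2-fold with them, at 0.94 and 0.95. The scalings also moved the median of all genes tested in RES-B, from 0.12 to 0.01 with either.

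KRT8, the type II partner of KRT18, was at 171 CPM in LNCaP and 188 in LNCaP-ENZ48, and RES-A and RES-B had 213 and 250 CPM. The order of the libraries resembled that of KRT18 but the steps were smaller. With scaling by library totals, though not with TMM or DESeq2 size factors, KRT8 alone of the pair was higher after 48 h of ENZ. Its log2 ratios against LNCaP were 0.14 (0.10 to 0.18), 0.32 (0.28 to 0.36) and 0.55 (0.51 to 0.59) in that order, and RES-B exceeded RES-A by 0.23 (0.20 to 0.27). KRT10 was at 237 CPM in LNCaP, at 251 in LNCaP-ENZ48, at 258 in RES-A and at 317 in RES-B. Its first 3 levels lay close together and RES-B stood above them, with log2 ratios against LNCaP of 0.08 (0.05 to 0.12), 0.12 (0.09 to 0.16) and 0.42 (0.38 to 0.45). RES-B exceeded RES-A by 0.30 (0.26 to 0.33) for KRT10. KRT8 and KRT18 have 51 and 68 annotated pseudogenes in GENCODE 44, none of them a row of the matrices, so their absolute levels are less certain than their ratios; KRT10 has none.

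**Figure D1:**
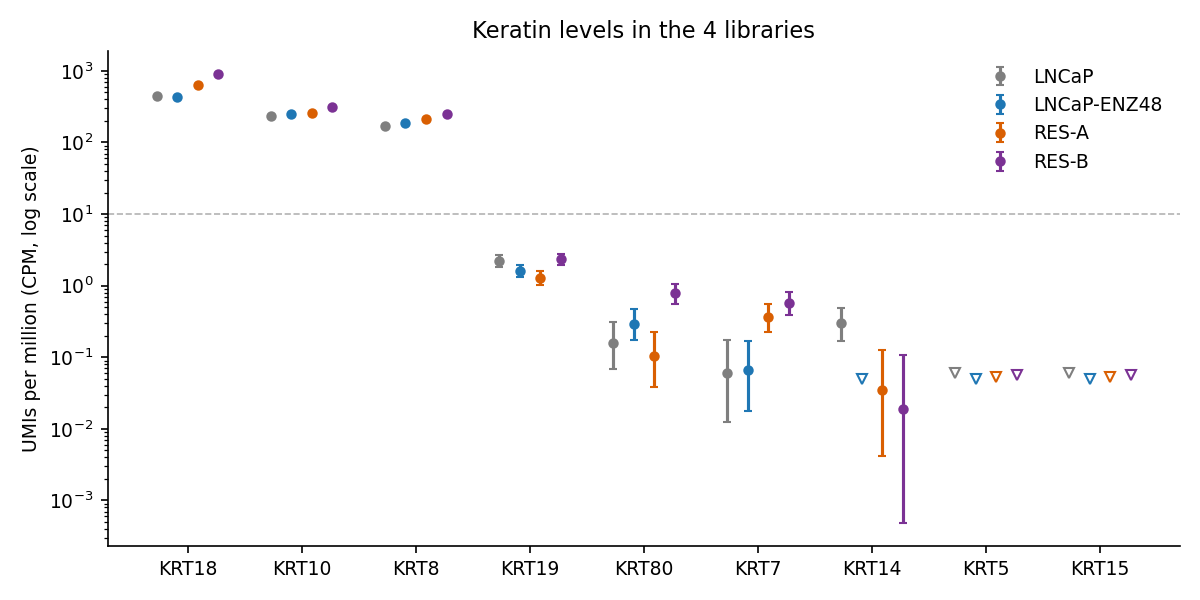
Level of each of the 9 keratins in the 4 libraries, as CPM on a log axis with 95% Poisson intervals; open triangles mark a gene with 0 UMIs, drawn at 3 UMIs per library, and the dashed line is 10 CPM. KRT18, KRT10 and KRT8 sit between 171 and 918 CPM, the other 6 genes below 3 CPM, and KRT5 and KRT15 were without a UMI in every library.

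KRT8, KRT18 and KRT10 were the 3 of 9 genes that reached 10 CPM in a compared library, and the other 6 were too low to enter the count of 2-fold differences. In LNCaP-ENZ48 against LNCaP none of the 3 was 2-fold higher or lower, beside 0.212% of 7554 genes that were higher and 0.728% that were lower. In RES-A none of the 3 reached 2-fold, beside 4.8% of 7975 genes higher and 4.99% lower. In RES-B 1 of the 3, KRT18, was at least 2-fold higher, beside 5.76% of 8090 genes, and none was lower, beside 3.73%; under TMM, DESeq2 or a total without mitochondrial and ribosomal protein genes that count was 0. Between RES-B and RES-A none of the 3 reached 2-fold, beside 3.95% of 7954 genes higher in RES-B and 2.3% lower. With 3 genes such counts say little, and the medians of the 3 ratios were 0.08, 0.32, 0.55 and 0.30 in the 4 comparisons, beside -0.08, 0.02, 0.12 and 0.09 over all genes tested.

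**Figure D2:**
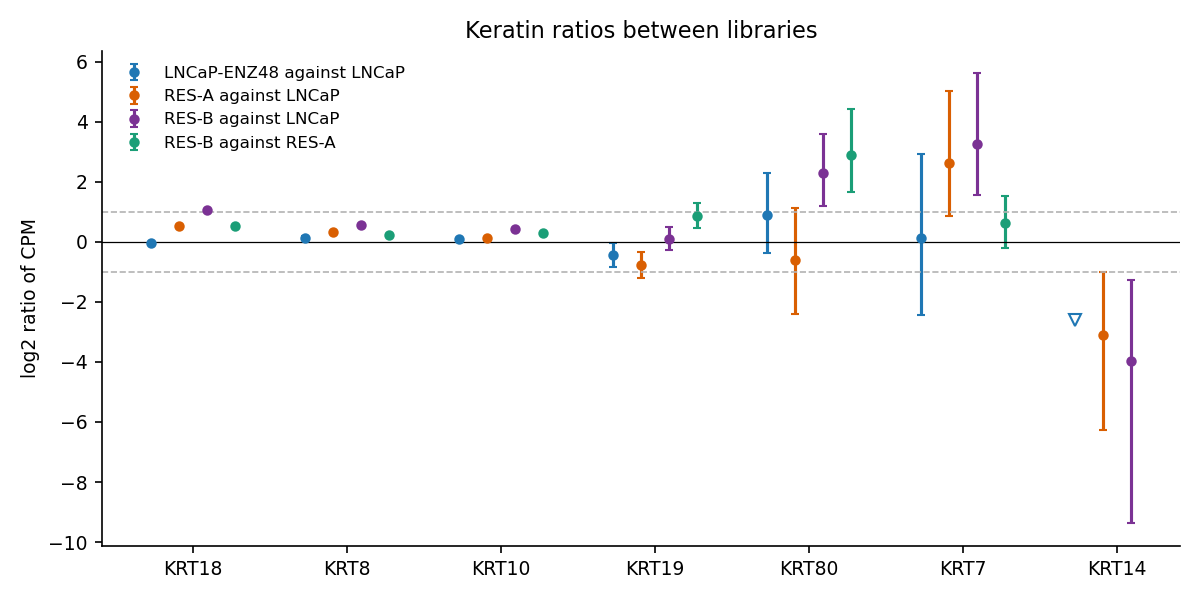
log2 ratio of CPM between libraries for the 7 keratins that had over 3 UMIs in a compared library, with exact 95% intervals and dashed lines at 2-fold. The open triangle is KRT14, whose 0 UMIs in LNCaP-ENZ48 were set to 3, an upper bound that leaves out counting error in LNCaP. The ratios of KRT18, KRT8 and KRT10 lie between -0.04 and 1.05 with intervals narrower than the symbols, while those of the 4 rare keratins span several units.

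The balance of type I to type II keratin UMIs differed between the libraries. Summed over the members, type I exceeded type II 4.01-fold (3.91 to 4.10) in LNCaP and 3.64-fold (3.56 to 3.71) in LNCaP-ENZ48, against 4.20-fold (4.12 to 4.29) for RES-A and 4.92-fold (4.83 to 5.01) for RES-B. The balance was lowest after 48 h of ENZ and highest in RES-B, and no 2 of the 4 intervals overlapped. For the pair KRT18 and KRT8 alone the ratio of UMIs was 2.61 (2.54 to 2.67) for LNCaP, 2.30 (2.25 to 2.35) for LNCaP-ENZ48, 2.998 (2.94 to 3.06) for RES-A and 3.67 (3.60 to 3.74) for RES-B. Being a ratio within a library, it does not depend on the scaling between libraries. Its absolute value shares the uncertainty that the pseudogenes of KRT8 and KRT18 bring to their levels. All keratin genes together made up 855 CPM in LNCaP and 874 in LNCaP-ENZ48, against 1117 and 1491 CPM in the sublines RES-A and RES-B.

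The higher KRT18 in the sublines was spread over the cells rather than held by a few. With every cell thinned to 5000 UMIs, the median cell had 2 KRT18 UMIs in LNCaP and LNCaP-ENZ48, 3 for RES-A and 4 for RES-B, and the 10th percentile was 0, 0, 1 and 2. The share of cells with a KRT18 UMI was 85.6% (83.9 to 87.2) in LNCaP and 84.8% (83.7 to 85.9) in LNCaP-ENZ48, against 94.5% (93.8 to 95.1) for RES-A and 98.1% (97.7 to 98.5) for RES-B. Unthinned, it was 99.9%, 98.3%, 99.6% and 99.9%, so nearly every cell of each library carried KRT18. For KRT8 the thinned share was 55.7% (53.4 to 58.0) for LNCaP, 60.0% (58.5 to 61.5) for LNCaP-ENZ48, 64.4% (63.0 to 65.8) for RES-A and 69.3% (67.8 to 70.7) for RES-B. Its unthinned share was 98.0% in LNCaP, the library with the deepest cells and the lowest KRT8 level, and 89.3%, 90.5% and 93.0% in the other 3. For KRT10 the thinned share was 68.6% (66.4 to 70.8), 70.7% (69.3 to 72.0), 71.1% (69.8 to 72.4) and 77.7% (76.4 to 79.0), and the unthinned share 99.4%, 95.4%, 93.1% and 95.4%. No library holds cells known to lack keratins, so the share that free RNA would give could not be measured for these 3 genes.

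**Figure D3:**
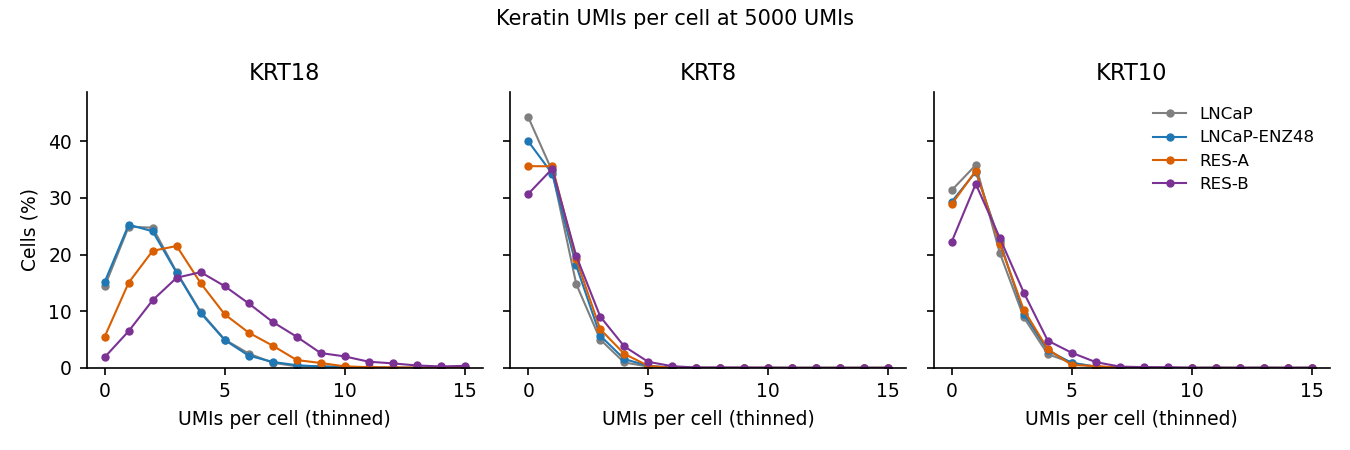
Percentage of cells at each number of KRT18, KRT8 and KRT10 UMIs after thinning every cell to 5000 UMIs, 1 line per library; the last point of each line holds 15 or more. The KRT18 line of RES-A and, further, that of RES-B are moved to the right of the parental lines, and each line has a single peak.

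The counts of KRT18 varied between cells somewhat more than those of genes at a like level. Its variance-to-mean ratio was 1.30 and 1.32 in the 2 parental libraries, 1.25 for RES-A and 1.47 for RES-B, beside medians of 1.14, 1.12, 1.11 and 1.25 over the genes within 1.5-fold of its mean, and it stayed below the 90th percentile of those genes in each library. KRT8 was at 1.03 to 1.07 in the first 3 libraries and 1.18 in RES-B; KRT10 was at 1.03 to 1.07 and 1.26. Across cells the counts of KRT8 and KRT18 were nearly unrelated, with Spearman's rho of 0.11, 0.10, 0.04 and 0.12 over the 1782 to 4569 cells of a library, at counts so low that a correlation of this size is no finding.

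Within each library the abundant keratins also differed between cells called by cell cycle phase from S and G2/M gene lists, which hold no keratin. KRT8 was lower in S-phase cells than in G1 cells in 4 of 4 libraries: 151 against 177 CPM in LNCaP, 138 against 197 in LNCaP-ENZ48, 201 against 225 for RES-A and 209 against 260 for RES-B. KRT18 was lower in S than in G1 cells in all 4 as well, at 354 against 446 CPM in LNCaP and 821 against 931 in RES-B. In G2/M cells KRT18 was above its G1 level in LNCaP, at 482 against 446 CPM. It was below that level in LNCaP-ENZ48 (401 against 445) and RES-A (571 against 668), and close to it in RES-B (922 against 931). KRT10 had its highest level in G2/M cells in all 4 libraries. In G2/M against G1 cells, KRT10 was at 265 against 232 CPM in LNCaP, 283 against 247 in LNCaP-ENZ48, 315 against 245 for RES-A and 393 against 303 for RES-B. The 2 counting intervals did not overlap in any library, but the share of all genes that differ so between phases was not measured. The phases are calls from the same cells, 137 to 571 of them in S and 315 to 805 in G2/M, and free RNA reaches such calls. Within G1 cells alone KRT18 was at 446 CPM in LNCaP and 445 in LNCaP-ENZ48, with RES-A at 668 and RES-B at 931, so the sublines kept their order.

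**Figure D4:**
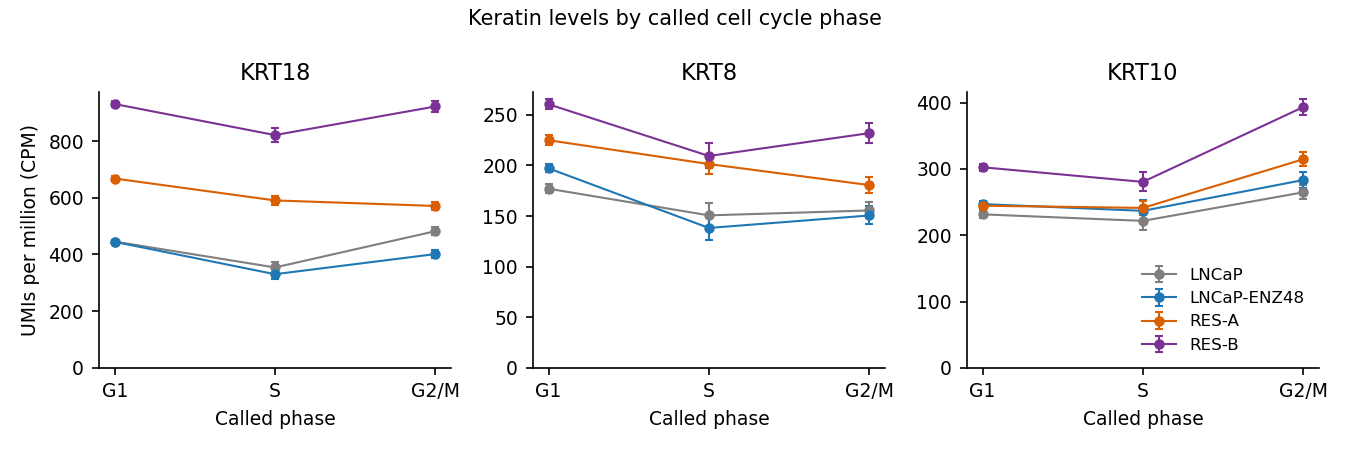
CPM of KRT18, KRT8 and KRT10 in cells called G1, S or G2/M within each library, with 95% Poisson intervals. KRT8 dips from G1 to S in every library, and KRT10 is highest in G2/M in every library, reaching 393 CPM in RES-B.

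Of the ductal keratins, KRT19 was found at 2.19 CPM in LNCaP and 1.61 in LNCaP-ENZ48, with RES-A at 1.29 and RES-B at 2.36, from 74 to 124 UMIs per library. RES-A was the lowest, with a log2 ratio of -0.76 (-1.21 to -0.33) against LNCaP, and RES-B did not stand apart from LNCaP at 0.11 (-0.28 to 0.49). In LNCaP-ENZ48 the ratio was -0.44 (-0.85 to -0.04), and RES-B exceeded RES-A by 0.87 (0.44 to 1.31). At 5000 UMIs KRT19 was found in 0.678% to 1.35% of cells, and no cell had over 2 UMIs. KRT7 had 3 UMIs in LNCaP and 4 in LNCaP-ENZ48, but 21 for RES-A and 30 for RES-B. Both sublines were above both parental libraries, each cell that had KRT7 holding 1 UMI. The log2 ratios of KRT7 against LNCaP were 2.62 (0.87 to 5.00) for RES-A and 3.26 (1.57 to 5.61) for RES-B, and they rest on the 3 UMIs of LNCaP. KRT7 in RES-B and RES-A differed by 0.64 (-0.21 to 1.52), which counting error covers. KRT80 had 8 UMIs in LNCaP, 18 after short treatment, 6 in RES-A and, at most, 41 in RES-B. RES-B was highest for KRT80, by 2.29 (1.18 to 3.60) on the log2 scale over LNCaP and by 2.90 (1.65 to 4.42) over RES-A, while LNCaP-ENZ48 at 0.89 (-0.38 to 2.30) and RES-A at -0.61 (-2.41 to 1.11) were within counting error of LNCaP. Unthinned, KRT7 was in 0.168% of LNCaP and 0.0927% of LNCaP-ENZ48 cells, 0.46% of RES-A cells and 0.739% of RES-B cells, and KRT80 in 0.393%, 0.394%, 0.131% and 0.985%. The shares of KRT7 in the 2 parental libraries rest on 3 and 4 cells.

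The basal keratins were nearly absent from the counts. KRT5 and KRT15 had 0 UMIs in all 4 libraries, which allows up to 0.0493 to 0.0598 CPM for each gene in a library. It also allows a share of cells with a UMI of up to 0.168% in LNCaP, the library with the fewest cells, and 0.0657% to 0.0739% in the others. KRT14 had 15 UMIs in LNCaP, none after 48 h of ENZ, 2 in RES-A and just 1 in RES-B. LNCaP thus held 15 of the 18 KRT14 UMIs although it had the fewest UMIs in all. With its 0 UMIs set to 3, KRT14 was at least 6.06-fold lower in LNCaP-ENZ48 than in LNCaP, a bound that leaves out counting error in the 15 UMIs. Its log2 ratio against LNCaP was -3.10 (-6.27 to -0.99) for RES-A and -3.97 (-9.37 to -1.27) for RES-B, resting on 2 UMIs and 1 UMI. The 15 UMIs of LNCaP lay in 15 cells, 0.842% (0.472 to 1.38) of the library unthinned, and all 15 of these cells had KRT18 and 14 had KLK3, a luminal kallikrein present in 71.9% of LNCaP cells.

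Genes of basal epithelium other than keratins were also few. Of 16 such genes 3 to 5 were at 0 in a library, TP63 among them, and 1 to 3 reached 10 CPM in a comparison. LAMA3, a laminin chain, was at 4.0 CPM in LNCaP and 4.16 in LNCaP-ENZ48, with 20.9 for RES-A and 48.9 for RES-B, and DST, a plakin that anchors filaments at hemidesmosomes, at 3.05, 2.32, 10.5 and 18 CPM. These 2 were the genes of the list that were at least 2-fold higher in each subline than in LNCaP, out of 3 tested. Of all genes tested, 4.8% were called higher for RES-A and 5.76% for RES-B. The integrin ITGA6 was called lower for RES-A at -1.04 (-1.18 to -0.90), beside 4.99% of all genes tested. Its ratio for RES-B was close to this, at -0.95 (-1.09 to -0.81), just short of a 2-fold difference. In LNCaP-ENZ48 1 gene of the list was tested and it was not called. Of 12 club and hillock cell genes 1 was tested, PSCA, which was higher in RES-A by 1.30 (1.08 to 1.53), beside 4.8% of all genes tested. PSCA was lower in RES-B than in RES-A, at -1.29, beside 2.3% of all genes tested.

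Genes of luminal prostate epithelium differed from KRT8 and KRT18 in direction. Of 12 or 13 tested, 4 were at least 2-fold lower than in LNCaP after short treatment, 6 in RES-A and 5 in RES-B, and 0, 1 and 1 were higher. Over all genes tested, 0.728%, 4.99% and 3.73% were lower and 0.212%, 4.8% and 5.76% higher. The list's medians were -0.32, -0.66 and -0.55, beside -0.08, 0.02 and 0.12 over all genes tested. KLK3 was at 718 CPM in LNCaP and 95 in LNCaP-ENZ48, against 0.0349 for RES-A, where it had 2 UMIs, and 30.5 for RES-B. CD24, a surface glycoprotein, was the gene of the list that was 2-fold higher in both sublines, at 4.62 CPM in LNCaP against 42.4 and 46.8. KRT18 was higher and KLK3 lower in both sublines than in either parental library. Between the sublines, however, both genes were higher in RES-B. After short treatment KLK3 was lower while KRT18 was at about the same level. A link between them was not tested.

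Genes of the junctions that anchor keratin filaments at the cell border mostly differed by less than 2-fold. Of 9 tested genes of desmosomes and plakins, 0 were called in LNCaP-ENZ48, 2 were lower in RES-A and 1 was lower in RES-B, beside 4.99% and 3.73% of all genes tested, and the medians were -0.05, 0.14 and 0.11. Desmoplakin (DSP), which links keratins to desmosomes, was at 91 CPM in LNCaP and 101 in LNCaP-ENZ48, with RES-A at 103 and RES-B at 145. The desmosomal cadherin DSC2 was at 55.1 CPM in LNCaP and 28.6 in LNCaP-ENZ48, but at 5.98 and 10.0 in the sublines, and DSG2 was lower in RES-A at -1.39 (-1.48 to -1.30). Of 16 epithelial adhesion genes tested, OCLN was higher in LNCaP-ENZ48 by 1.24, TJP1 was lower in RES-A at -1.91, and none was called in RES-B against LNCaP, beside 0.212% of all genes higher in the first and 4.99% lower in the second comparison. The medians were -0.07, -0.26 and -0.16. The epithelial surface protein EPCAM was at 103, 112, 152 and 175 CPM and E-cadherin (CDH1) at 111, 102, 123 and 129 CPM, with no 2-fold difference. Of 10 tested genes for keratin turnover and keratin gene control, 0 were called in LNCaP-ENZ48 and 2 were higher in each subline, beside 4.8% of all genes tested in RES-A and 5.76% in RES-B, and the medians were -0.10, 0.12 and 0.31. They were SQSTM1, a component of keratin aggregates, higher by 1.85 and 1.51 in RES-A and RES-B, the chaperone HSPA8, higher by 1.22 in RES-A, and the transcription factor JUN, higher by 1.61 in RES-B.

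Vimentin (VIM), the intermediate filament protein of mesenchymal cells, was the gene called, as higher, among 4 other filament genes tested in each subline against LNCaP, beside 4.8% and 5.76% of all genes; in LNCaP-ENZ48 3 were tested and 0 called. It was at 2.07 and 2.09 CPM in the parental libraries, at 211 in RES-A and at 59.9 in RES-B. At 5000 UMIs VIM was found in 0.842% of LNCaP and 1.07% of LNCaP-ENZ48 cells, but in 54.9% of RES-A cells and 18.9% of RES-B cells. Of the VIM-positive cells, 2465 of the 2509 for RES-A (98.2%) and 766 of the 768 for RES-B (99.7%) also had a KRT8 or KRT18 UMI, as nearly all cells of these libraries did. The mean KRT18 count was 3.15 UMIs in VIM-positive and 3.20 UMIs in other cells of RES-A, and 4.96 against 4.59 in RES-B. Cells with neither KRT8 nor KRT18 made up 7.63% of LNCaP and 6.70% of LNCaP-ENZ48, against 2.04% for RES-A and 0.689% for RES-B at this depth. Unthinned, just 0, 13, 4 and 3 cells lacked both, so a cell without either keratin at 5000 UMIs is not read as lacking them.

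Genes around KRT18 were also higher, in the median, in the sublines. The 50 nearest expressed protein-coding genes around KRT18, keratins left out, spanned 6490 to 6550 kb and had median log2 ratios against LNCaP of -0.03 after short treatment, 0.27 for RES-A and 0.30 for RES-B, beside -0.08, 0.02 and 0.12 over all expressed protein-coding genes. In RES-A 9 of the 50 had a ratio at or above that of KRT18, and in RES-B 3 of the 50 did. Between RES-B and RES-A the median of the neighbours was 0.06, beside 0.10 over all such genes. Around KRT10 on chromosome 17 the medians were -0.02, 0.06 and 0.20.

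**Figure D5:**
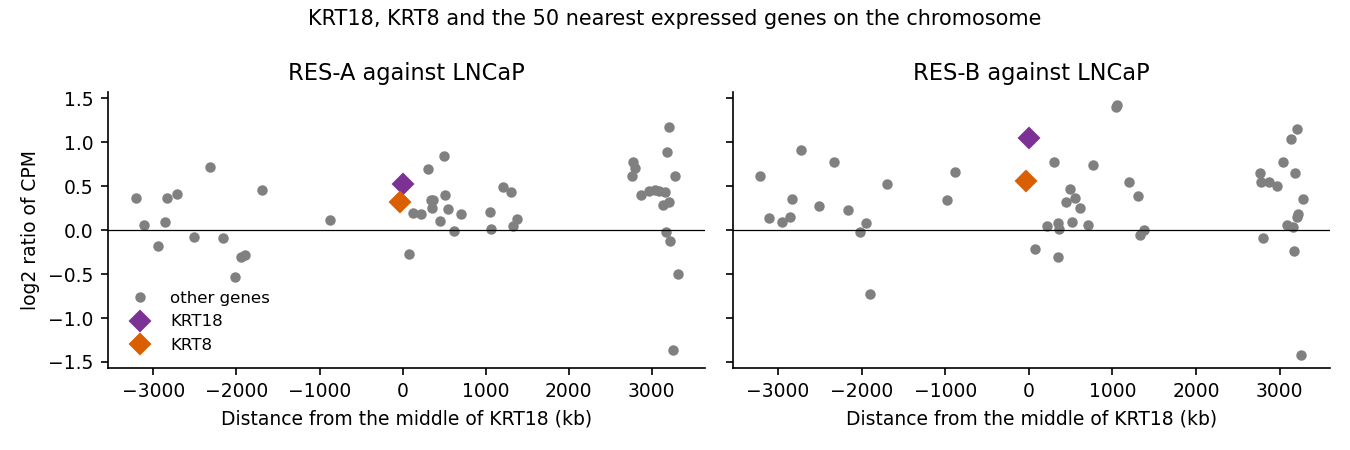
log2 ratio of CPM in RES-A and RES-B against LNCaP for KRT18, KRT8 and the 50 nearest expressed protein-coding genes, by distance in kb from the middle of KRT18. KRT18 at 1.05 lies above 47 of its 50 neighbours in RES-B, and at 0.52 above 41 of 50 in RES-A.

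Over the 4 libraries, the 3 genes whose centred log2 levels lay nearest to those of KRT18, among 7460 genes at a mean of 10 CPM or more, were WASF3, PTGR1 and TBC1D24. WASF3 was at 8.31 CPM in LNCaP and 7.84 in LNCaP-ENZ48, with RES-A at 12.3 and RES-B at 17.3. The nearest to KRT8 were GTF2I, CNPY2 and NELFE, and the nearest to KRT10 were TSEN15, VPS45 and RIDA. With 1 minus Pearson's correlation as the measure, none of the 3 genes was shared with these for KRT8, KRT18 or KRT10, so the names depend on the measure; 4 points do not set a pattern apart.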

How the data were processed

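The deposited values are UMI counts per gene and barcode. Per the submitters' processing notes, the authors counted with Cell Ranger 3.0.2 on GRCh38. Cell Ranger counts reads in sense to a single gene, so reads that fit a near-identical copy can be lost. Cells were kept by the study's limits per library: 3000 to 7000 genes, 16000 to 50000 UMIs and under 15% mitochondrial UMIs for LNCaP, and 1500 to 5000 genes, 5000 to 25000 UMIs and under 15%, 17% or 20% for LNCaP-ENZ48, RES-A and RES-B. UMIs were summed per library and divided by the library total. Intervals are exact Poisson for levels, exact conditional binomial (Clopper-Pearson) for ratios and exact binomial for shares. A count of 0 was set to 3 UMIs per library in ratios. With 1 library per group no test across conditions was possible, and cells were not used as replicates. A gene was tested, in the sense of being counted, at 10 CPM or more in 1 of the 2 libraries, and called at a 2-fold difference.

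Shares were compared after thinning each cell to 5000 UMIs with fixed seeds. Phases were called with scanpy 1.11.5 from S and G2/M lists. Scrublet called 3 to 8 cells a library as doublets, too few to be useful, and all cells were kept; leaving out the 34 to 188 highest scores was an alternative. TMM came from edgeR 4.0.16 and size factors from DESeq2 1.42.0, in R 4.3.3; Python 3.11.15 and scipy 1.17.1 did the rest. The ratio code was tested on simulated data. Positions came from GENCODE 44, which held 33113 of the 33538 gene IDs. The members and gene lists were chosen with earlier results of these data known. The genes named were all 9 members, other keratins at 10 CPM or more (none), list genes at least 2-fold different, at most 4 per list and comparison, the lists' defining genes, and the 3 nearest genes by pattern. Some genes of the luminal list enter its counts and median but are not reported here by name.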

Additional observations from a re-analysis of the deposited data

Results flagged for a closer look

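KRT18 lay on opposite sides of LNCaP in the short treatment and in the sublines: its log2 ratio was -0.039 in LNCaP-ENZ48, against 0.523 for RES-A and 1.047 for RES-B. The difference between these effects was not tested, since each condition is 1 library and all 3 ratios share the LNCaP library, and the value in LNCaP-ENZ48 turned positive with TMM scaling and with DESeq2 size factors.

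Among the 46 keratin genes that are not members, 28 had no UMI in any library and none reached 10 CPM. KRT6C and KRT24 were chosen after their values were seen, because they were above the LNCaP library in the sublines. KRT6C, a type II keratin of stressed epidermis in the type II cluster (chr12:52468516-52473805), had 0 UMIs in LNCaP and 1 in LNCaP-ENZ48, but 319 for RES-A and 80 for RES-B, which is 5.56 and 1.52 CPM. Its near-identical copies KRT6A and KRT6B had at most 1 and 2 UMIs in a library, and which copy gave the reads is uncertain. KRT24, a type I keratin, had 0, 1, 10 and 7 UMIs, or 0.174 CPM in RES-A.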

How the results depend on the processing

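With 1 library per group no replicate could be left out. No paired analysis was possible because the groups share no replicate beyond a single library each. Of 27 member ratios, 24 kept their sign under all 8 alternatives for scaling and cells; the exceptions were KRT18 in LNCaP-ENZ48, KRT7 in LNCaP-ENZ48 (-1.05 to 0.24) and KRT80 in RES-A against LNCaP (-0.66 to 0.91), the last 2 at counts of 3 to 8 UMIs. KRT18 against LNCaP moved past its counting interval as follows. In RES-B it was 1.02 over all barcodes, 0.94 with TMM, 0.95 with DESeq2 size factors, 0.96 with a total without mitochondrial and ribosomal protein genes and 1.07 as a mean of CPM per cell. In RES-A it was 0.58 in G1 cells, 0.47 with TMM, 0.48 with DESeq2 size factors and 0.48 without mitochondrial and ribosomal protein genes. In LNCaP-ENZ48 it was -0.0030 in G1 cells, 0.0567 with TMM and 0.0626 with DESeq2 size factors. The count of members called higher in RES-B went from 1 to 0 with these 3 scalings. In G1 cells the type I to type II ratio was 3.84 for LNCaP, 3.51 for LNCaP-ENZ48, 4.06 for RES-A and 4.72 for RES-B, which keeps the order of the libraries. Over all genes, a minimum of 1 CPM gave 81 higher and 168 lower in LNCaP-ENZ48 (16 and 55 at 10 CPM), 1255 and 984 in RES-A (383 and 398), 1190 and 776 in RES-B (466 and 302) and 778 and 651 between RES-B and RES-A (314 and 183), because more genes entered. A minimum of 50 CPM gave 8 and 23, 117 and 127, 171 and 92, and 115 and 56, because fewer did. With TMM the split of higher and lower genes was 21 and 41 in LNCaP-ENZ48 and 358 and 364 in RES-B, and with DESeq2 size factors 21 and 38, and 366 and 359. Of the other values of single genes, shares and lists under an alternative, 1420 stayed within their counting interval or limit and 260 moved, with no reversal of a called value. Depth limits the rare keratins: a count of 0 allows up to 3 UMIs in a library, about 0.05 CPM.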
